A study of Mus musculus with 34 samples.

Results

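Btg1, Btg2, Zfp36, Zfp36l1 and Zfp36l2 are 5 genes whose proteins speed the removal of messenger RNA. They were chosen by name, as the rows with these symbols in each deposited table, and all 5 were listed in each of the 5 tables, which hold 11808 to 53465 genes. All 5 passed the filter on low counts in batches 1 to 4, and 3 of the 5 did so in batch 5, where Zfp36l1 and Zfp36l2 fell short of it. RNA was sequenced from 34 RiboTag libraries in 11 groups. In RiboTag mice, Cre recombinase switches on an HA-tagged form of Rpl22, a ribosomal protein, and an antibody against the tag then pulls down ribosomes of one cell class with their mRNA.

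All mice were C57/BL6 at postnatal day 60 and carried the RiboTag allele. The genotype PV:Cre/Ribotag tags ribosomes of parvalbumin (PV) interneurons and Sst:Cre/Ribotag those of somatostatin (SST) interneurons. Here n counts libraries, as the labels do not state whether each came from a separate animal. In batch 1, PV mice received pentylenetetrazol, PTZ (n = 4), or saline (n = 3). In batch 2, SST mice received PTZ (n = 3) or saline (n = 4), and PV mice received saline (n = 2). Batch 3 held PV mice after contextual fear conditioning, CFC (n = 3), home cage mice of genotype PV:Cre/Nr4a1-f/f/Ribotag, called PV Nr4a1 cKO here (n = 3), and PV home cage mice (n = 3). Batch 4 held SST mice after CFC (n = 3) and in the home cage (n = 3), and batch 5 home cage mice of genotype Sst:Cre/Nr4a1-f/f/Ribotag, called SST Nr4a1 cKO (n = 3). PTZ blocks GABA receptors and excites the whole brain, and CFC teaches mice to fear a context through foot shocks. The labels name cortex and hippocampus as the tissue, with no dose of PTZ and no time of collection. The floxed Nr4a1 is removed only where Cre is active. RNA from before the pull-down was not analysed here.

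Proteins of the BTG family bind the CCR4-NOT deadenylase complex and poly(A)-binding protein and so shorten poly(A) tails. Btg2 is also known as an early response gene of stimulated cells, and Btg1 as its close paralogue that keeps cells quiescent. The proteins of the Zfp36 family, of which tristetraprolin (Zfp36) is the best known, carry a pair of CCCH zinc fingers that bind AU-rich elements in 3′ untranslated regions and then recruit CCR4-NOT. Their known targets are short-lived mRNAs of cytokines and immediate early genes, and the transcripts of the family carry such elements themselves.

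Promoter windows of 250 bases before to 50 bases after the start site were available from RefSeq (GRCm38.p6) for 4 of the 5 genes, all but Zfp36l2. Those of Btg2 and Zfp36 are shown because these genes were called higher after PTZ, Btg2 in both classes and Zfp36 in SST mice. Capitals mark matches to the cyclic AMP response element (CRE, TGACGTCA), the EGR site (GCGNGGGCG) and the CArG box of serum response factor, searched on both strands together with the CRE half-site TGACG and the AP-1 site TGANTCA. The Btg2 window is chr1:134079106-134079405 on the minus strand. The Zfp36 window is chr7:28379179-28379478, also on the minus strand, and lies inside the longer Zfp36 gene of GENCODE M21.
Btg2: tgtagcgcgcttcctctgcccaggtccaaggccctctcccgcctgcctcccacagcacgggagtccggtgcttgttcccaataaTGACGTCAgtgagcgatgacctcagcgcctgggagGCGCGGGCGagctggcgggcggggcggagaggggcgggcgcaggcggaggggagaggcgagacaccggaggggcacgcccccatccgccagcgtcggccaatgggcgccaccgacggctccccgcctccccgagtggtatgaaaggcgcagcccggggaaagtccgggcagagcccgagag
Zfp36: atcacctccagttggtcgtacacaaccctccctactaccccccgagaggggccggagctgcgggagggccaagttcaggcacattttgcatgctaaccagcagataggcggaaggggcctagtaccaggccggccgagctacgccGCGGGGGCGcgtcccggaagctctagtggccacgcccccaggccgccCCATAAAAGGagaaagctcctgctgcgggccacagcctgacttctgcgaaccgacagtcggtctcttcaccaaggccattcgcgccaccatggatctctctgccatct

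Btg2 held a full CRE from -166 to -159 relative to the start site and an EGR site from -131 to -123. A CRE stood in 1.79% and an EGR site in 5.55% of 32851 promoter windows of the same length. The CRE of Btg2 also counts as a CRE half-site on each strand. In the Zfp36 window a CArG box lay from -58 to -49, a motif found in 1.63% of windows, and an EGR site from -105 to -97. Btg1 held no full CRE, but a CRE half-site at -187 to -183 and another at -103 to -99, and 20.8% of windows held at least 1 half-site. Zfp36l1 held an AP-1 site from -129 to -123, a motif present in 7.81% of windows. A match is a match of letters, not a measured site.

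**Figure D1:**
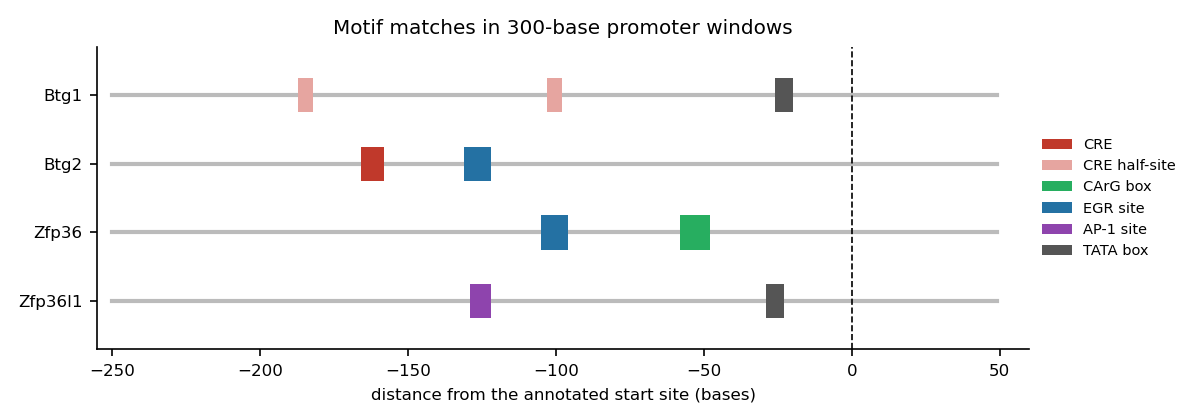
Positions of motif matches in the promoter windows of 4 of the genes, in bases from the annotated start site (dashed line at 0). Coloured blocks are matches, including TATA boxes searched on the gene's own strand and found in 8.32% of windows. The full CRE appears in Btg2 and the CArG box in Zfp36.

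AU-rich letters were counted in the longest annotated 3′ untranslated region (3′ UTR) of each gene in GENCODE M21, on the strand of the transcript. The nonamer TTATTTATT, the core that Zfp36 proteins prefer, occurred in Zfp36, Zfp36l1 and Zfp36l2, once in each. Of 3′ UTRs within 20% of the same length, 4.01% held it for Zfp36 and 10.0% for each of Zfp36l1 and Zfp36l2. Windows of 30 bases around it, with the nonamer in capitals, are shown because the nonamer sets these 3 genes apart from the Btg genes in letters. Btg2, shown with its single TATTTAT in capitals, had no nonamer.
Zfp36: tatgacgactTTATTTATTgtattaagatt
Zfp36l1: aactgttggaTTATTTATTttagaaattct
Zfp36l2: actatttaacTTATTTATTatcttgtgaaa
Btg2: aaatgaagagcTATTTATacatgttttttt

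The heptamer TATTTAT, which every nonamer contains, was found 3 times in the 774 bases of the Zfp36 3′ UTR. It was found 3 times in the 1835 bases of Zfp36l1 and 3 times in the 1822 bases of Zfp36l2. Only 1.3% of 3′ UTRs near the length of Zfp36 held as many, against 4.31% for Zfp36l1 and 4.3% for Zfp36l2. Btg1 held 0 heptamers in a 3′ UTR of 4166 bases, although 60.7% of 3′ UTRs near that length held at least 1.

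Total counts ran from 4933110 to 27282912 per library, with the PV saline libraries of batch 2 the shallowest. Summed CPM (counts per 1000000 counts of the library, with TMM scaling) of 9 SST interneuron markers was 6079.2 to 12849.6 in SST libraries and 283.1 to 1423.3 in PV libraries, with no overlap. In batch 2, the table that holds both classes, 10 PV interneuron markers summed to 2721.8 to 3295.1 CPM in SST saline libraries and 9146.3 to 10236.3 CPM in PV saline libraries, and 9 of 10 were called lower in SST libraries. Pvalb itself was at 6.21 to 12.0 CPM in those SST libraries and 361.9 and 243.1 CPM in the PV libraries. In the home cage tables Pvalb did not separate the classes, as it was at 87.2 to 477.3 CPM in SST home cage libraries and 154.6 to 190.3 CPM in PV home cage libraries, tables that were scaled separately. Within batch 3, PV Nr4a1 cKO replicates 1 and 2 had 1053 and 1345 CPM of Pvalb against 155.8 CPM in replicate 3. Libraries that stood apart in markers of other cells were SST Nr4a1 cKO replicate 1 (vascular and mural markers at 1162.7 CPM, against 43.9 and 43.8 CPM in replicates 2 and 3) and PV saline replicate 1 of batch 1 (astrocyte markers at 4874.2 CPM, against 1126.2 and 1182.1 CPM in replicates 3 and 4). Nr4a1 was at 6.67, 16.4 and 7.64 CPM in PV Nr4a1 cKO libraries and 5.07, 7.43 and 11.7 CPM in PV home cage libraries. Counts over a whole gene can include exons outside a deleted part, so they do not check the genotype.

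Levels of the 5 genes per kilobase of exon set the Btg genes mostly above the Zfp36 genes. Btg2 had the highest mean CPM per kilobase in 7 of 11 groups and Btg1 in the other 4, while Zfp36 was lowest in 6 groups and Zfp36l2 in 4. For Zfp36 the exon length was 3470 bases, the whole span of its gene in GENCODE M21 (28376784 to 28380253). A shorter length would raise its values, so its low rank depends on the annotation. In PV home cage libraries Btg1 averaged 3.67 ± 0.339 CPM per kilobase, Btg2 1.86 ± 0.744, Zfp36l1 0.812 ± 0.0863, Zfp36l2 0.287 ± 0.302 and Zfp36 0.282 ± 0.278 (SD, n = 3). After PTZ in SST mice the order was different, with Btg2 at 19.7 ± 2.52, Zfp36 at 4.17 ± 1.11 and Btg1 last at 1.63 ± 0.199 CPM per kilobase (SD, n = 3).

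**Figure D2:**
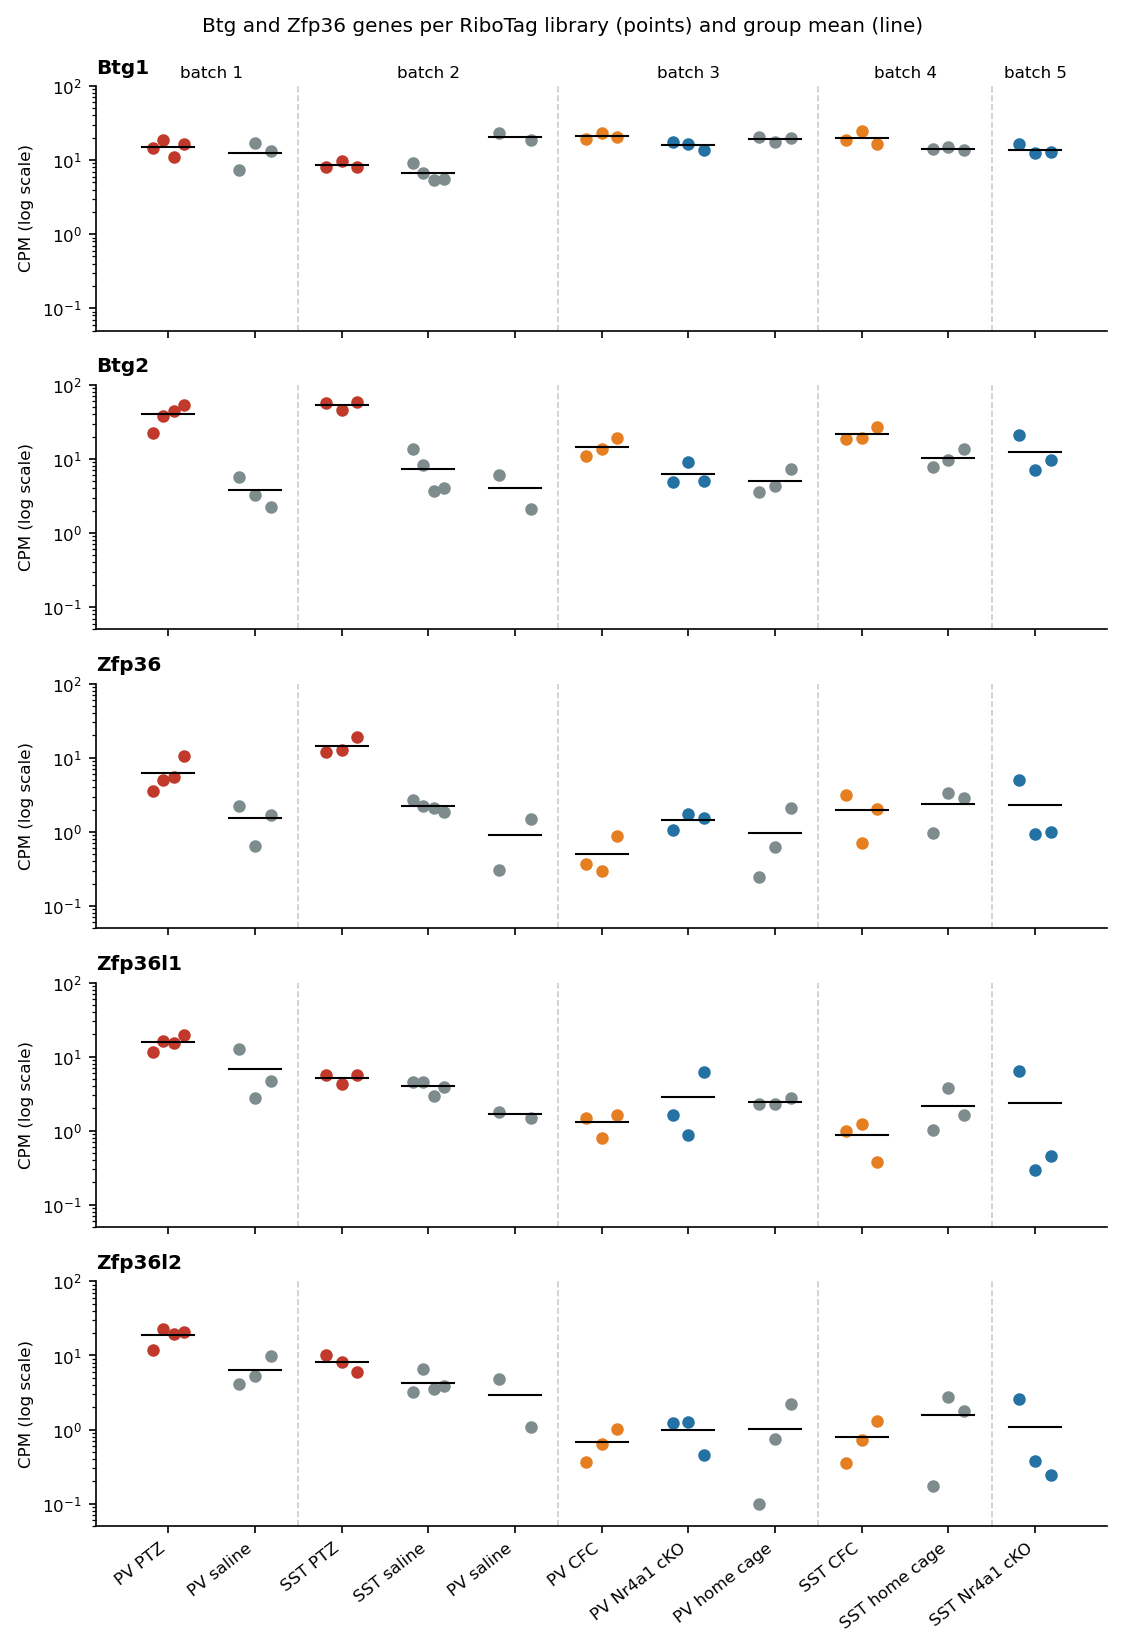
CPM of each gene on a log scale in every library (points) and the group mean (line), with groups ordered by batch. Btg2 and Zfp36 are highest in the PTZ groups, while Btg1 lies between 5.40 and 24.4 CPM in every library.

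Across the 11 groups, whose CPM were scaled within each batch, Btg2 was highest in SST PTZ (54.1 ± 6.92 CPM, SD, n = 3) and PV PTZ libraries (39.8 ± 13.0 CPM, n = 4). SST CFC (21.6 ± 4.77 CPM) and PV CFC libraries (14.6 ± 4.11 CPM) followed, and PV saline libraries of batch 1 were lowest (3.77 ± 1.80 CPM, n = 3 each). Neighbours in this order overlapped in all 10 pairs. Zfp36 had the same top groups, 14.5 ± 3.85 CPM in SST PTZ and 6.19 ± 3.09 CPM in PV PTZ libraries. SST PTZ libraries stood apart from PV PTZ libraries, whereas the PV PTZ range, which began at 3.57 CPM, overlapped SST Nr4a1 cKO libraries, whose replicate 1 was at 4.96 CPM. The other 9 groups averaged 0.509 to 2.38 CPM of Zfp36, and each overlapped its neighbour. Zfp36l2 was highest in PV PTZ libraries (18.7 ± 4.78 CPM), apart from SST PTZ libraries (8.06 ± 2.14 CPM). Zfp36l1 ranged from 15.7 ± 3.49 CPM in PV PTZ to 0.867 ± 0.442 CPM in SST CFC libraries, and Btg1 from 20.9 ± 2.04 CPM in PV CFC to 6.71 ± 1.76 CPM in SST saline libraries. For both of these genes, neighbours overlapped in all 10 pairs. Where groups come from different batches, class or treatment cannot be told apart from batch, as for SST PTZ and PV PTZ libraries. PV saline libraries, which batches 1 and 2 both held, averaged 6.75 ± 5.32 CPM of Zfp36l1 in batch 1 and 1.66 ± 0.225 CPM in batch 2. For Btg1 they averaged 12.5 ± 4.77 CPM in batch 1 and 20.8 ± 3.36 CPM in batch 2.

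After PTZ, Btg2 rose in PV mice. It stood at 22.7, 38.1, 44.9 and 53.5 CPM in PTZ libraries, against 5.76, 3.30 and 2.25 CPM in saline libraries. Every PTZ library was above every saline library. The log2 fold change was 3.41 ± 0.40 (SE; adjusted p = 0.02, edgeR), and Btg2 ranked 3 by p among 13598 genes. It was the 1 member of the 5 called, beside 4 genes (0.0294%) called in the whole table. The call was lost when PTZ replicate 2, 3 or 4 or saline replicate 3 or 4 was left out (adjusted p 0.0813 to 0.194, edgeR), with the fold change between 3.17 and 3.44. Fewer cells of a type and less RNA per cell cannot be told apart in such pooled samples.

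Tristetraprolin (Zfp36) was at 3.57, 5.08, 5.45 and 10.7 CPM in PV PTZ libraries and 2.26, 0.637 and 1.70 CPM in PV saline libraries. The groups did not overlap, yet the gene did not pass (log2 fold change 2.03 ± 0.52, SE, with an adjusted p of 0.267, edgeR). Zfp36l2 showed the same picture, with 11.9, 23.1, 19.4 and 20.5 CPM after PTZ and 4.18, 5.33 and 9.85 CPM after saline. Its log2 fold change was 1.53 ± 0.35 (SE; adjusted p = 0.24, edgeR). With DESeq2 both genes passed (adjusted p = 0.0111 for Zfp36 and 0.00524 for Zfp36l2). Thus 3 of 5 members had PTZ libraries all above saline libraries, as had 7.56% of the genes tested, and 0 of 5 had them all below, as had 6.24%.

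Zfp36l1 overlapped between the PV groups, because 1 saline library was high. It had 11.4, 16.4, 15.1 and 19.8 CPM after PTZ and 12.8, 2.72 and 4.74 CPM after saline (log2 fold change 1.23 ± 0.46, SE; adjusted p = 0.324, edgeR). The high value belonged to saline replicate 1, the library with the most astrocyte markers, and the part of those cells was not tested. Without it the log2 fold change of Zfp36l1 was 2.06 ± 0.36 (SE; adjusted p = 0.0685, edgeR) and that of Btg2 3.83 ± 0.41 (adjusted p = 0.00366). Btg1 had 14.7, 18.5, 10.8 and 16.7 CPM after PTZ and 7.35, 16.8 and 13.3 CPM after saline, and did not pass (0.28 ± 0.31, adjusted p = 0.667, edgeR).

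Cell type markers moved with the PV PTZ group, with 0 called in any list. The 10 PV interneuron markers summed to 1698.0 to 4525.9 CPM in PTZ libraries and 4529.5 to 7034.2 CPM in saline libraries, without overlap. Of these markers 9 had a negative log2 fold change (median of all 10 -0.801, with 7 at an unadjusted p under 0.05, edgeR), and Pvalb was the positive one. Markers of microglia went the other way. Their summed CPM was 60.8 to 458.6 in PTZ libraries and 46.6 to 134.0 in saline libraries, and 10 of 10 microglia markers had a positive log2 fold change (median 1.69, 0 called). PTZ replicate 4, with 458.6 CPM of these markers, also had the highest Zfp36, Zfp36l1 and Btg2. Astrocyte markers summed to 2074.1 to 3480.9 CPM after PTZ and 1126.2 to 4874.2 CPM after saline (10 of 10 positive, median 0.457). Oligodendrocyte lineage markers summed to 618.3 to 3468.9 CPM after PTZ and 842.6 to 2273.3 CPM after saline (10 of 10 positive, median 0.701), and 9 of 10 excitatory neuron markers were positive (median 0.612). Vascular and mural markers summed to 38.7 to 105.9 CPM after PTZ and 17.3 to 59.2 CPM after saline, with 11 of 11 tested positive and 0 called. Without PTZ replicate 4 the log2 fold change was 1.63 ± 0.50 for Zfp36 and 3.24 ± 0.40 for Btg2 (SE; adjusted p = 0.177 and 0.0901, edgeR). The part of cell composition in the PV PTZ values was not tested.

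In SST mice both Btg2 and Zfp36 rose after PTZ. Btg2 had 56.7, 46.3 and 59.4 CPM in PTZ libraries and 13.8, 8.20, 3.70 and 3.99 CPM in saline libraries. Saline libraries varied among themselves, and all were below all PTZ libraries. The log2 fold change was 2.86 ± 0.40 (SE; adjusted p = 0.00918, edgeR). Zfp36 had 11.8, 12.8 and 18.9 CPM after PTZ and 2.66, 2.24, 2.07 and 1.86 CPM after saline, again with no overlap. Its log2 fold change was 2.71 ± 0.31 (SE; adjusted p = 0.00161, edgeR). These were 2 of the 5 members, where 17 of 11784 genes (0.144%) were called, and the same 2 were the members without overlap, as were 4.57% of genes in the upward direction. In the downward direction it was 0 members and 5.84% of genes. The Btg2 call was lost without saline replicate 2 or PTZ replicate 1 or 3 (adjusted p 0.0667 to 0.071, edgeR) and with only the PTZ and saline groups in the fit (adjusted p = 0.133). Zfp36 passed in each of these fits.

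The other 3 members overlapped between the SST groups. Zfp36l2 had 10.2, 8.04 and 5.93 CPM after PTZ and 3.21, 6.58, 3.48 and 3.89 CPM after saline (log2 fold change 0.91 ± 0.38, SE; adjusted p = 0.989, edgeR). Zfp36l1 had 4.28 to 5.70 CPM after PTZ and 2.96 to 4.60 CPM after saline (0.38 ± 0.26, adjusted p = 0.989). Btg1 had 8.01 to 9.83 CPM after PTZ and 5.40 to 9.19 CPM after saline (0.36 ± 0.23, adjusted p = 0.989). The SST PTZ table lists 7 of 10 microglia markers. These summed to 37.9 to 40.7 CPM after PTZ and 40.0 to 46.0 CPM after saline, and the part of those cells was not tested. Astrocyte markers summed to 1247.1 to 1456.9 CPM after PTZ and 1134.7 to 1234.8 CPM after saline, and 7 listed vascular and mural markers to 20.9 to 26.4 CPM after PTZ and 12.9 to 23.4 CPM after saline. Their part was not tested.

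**Figure D3:**
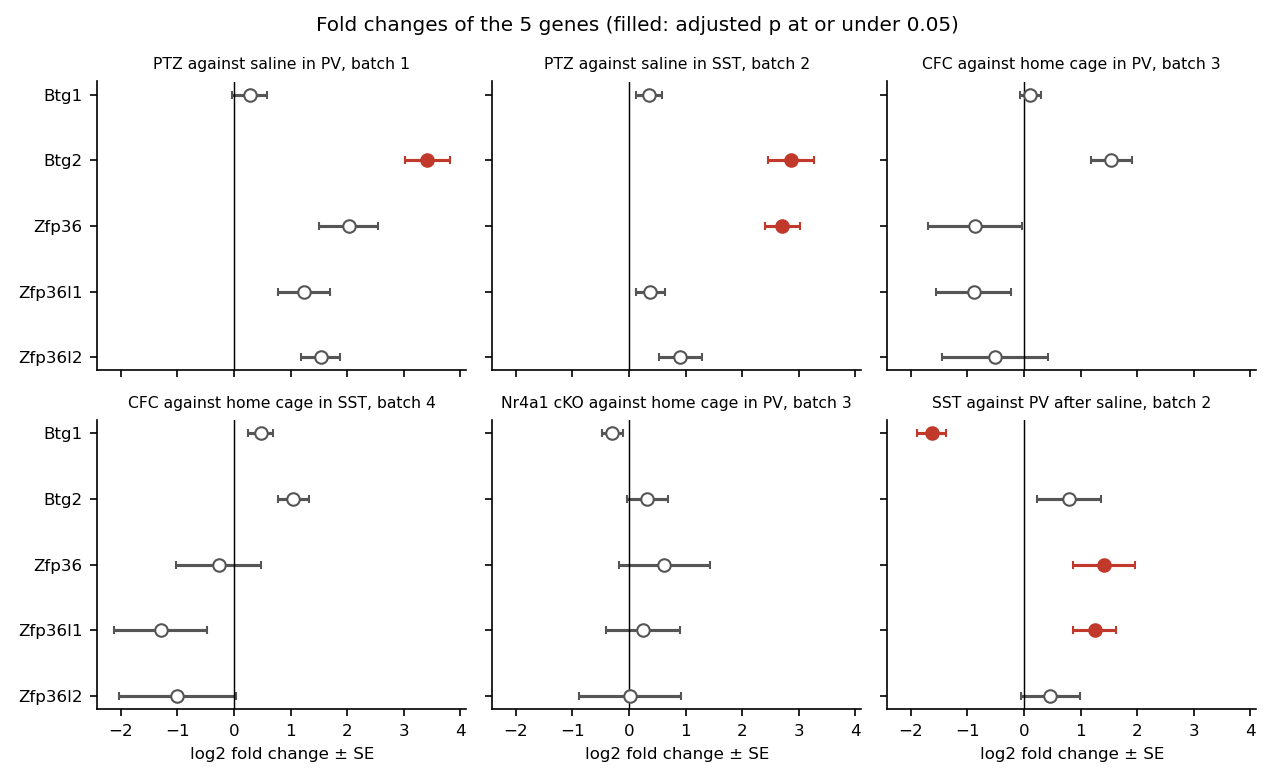
Log2 fold change ± SE (edgeR) of the 5 genes in 6 comparisons within a batch. Filled red points passed the adjusted threshold of 0.05: Btg2 after PTZ in PV and SST mice, Zfp36 after PTZ in SST mice, and Btg1, Zfp36 and Zfp36l1 between SST and PV saline libraries.

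After fear conditioning Btg2 was above every home cage library of the same class, with no call. In PV mice Btg2 had 11.1, 13.6 and 19.1 CPM after CFC and 3.56, 4.33 and 7.41 CPM in the home cage. The log2 fold change was 1.54 ± 0.36 (SE; adjusted p = 0.186, edgeR). In SST mice it had 18.4, 19.3 and 27.1 CPM after CFC and 7.87, 9.78 and 13.5 CPM in the home cage (1.05 ± 0.28, SE; adjusted p = 0.532, edgeR). CFC and home cage libraries did not overlap in either class. Of all genes tested, 13.6% in PV and 4.8% in SST mice had CFC libraries all above home cage libraries, and in SST mice 5.8% had them all below. EdgeR called 0 of 15150 genes (0%) in PV mice, with 2834 at an unadjusted p under 0.05 and 585 called by DESeq2, and 6 of 14614 genes (0.0411%) in SST mice. It called 0 members in either, and Btg2 had an unadjusted p of 0.00111 in PV and 0.00459 in SST mice. With no filter on low counts Btg2 passed in PV mice (adjusted p = 0.00077, edgeR, with 1032 genes called).

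Zfp36 overlapped between CFC and home cage libraries in both classes. It had 0.364, 0.296 and 0.866 CPM in PV CFC libraries and 0.244, 0.619 and 2.07 CPM in PV home cage libraries (log2 fold change -0.87 ± 0.83, SE; adjusted p = 0.592, edgeR). In SST mice it had 3.16, 0.712 and 2.04 CPM after CFC and 0.976, 3.32 and 2.85 CPM in the home cage (-0.27 ± 0.75, adjusted p = 0.997). Replicates differed widely within groups, and the direction turned without PV home cage replicate 3 (0.26) and without SST home cage replicate 2 (0.04) or SST CFC replicate 2 (0.13).

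Zfp36l1 had 1.50, 0.803 and 1.61 CPM after CFC in PV mice and 2.29, 2.27 and 2.72 CPM in the home cage, with CFC libraries all lower, as in 11.4% of genes (-0.89 ± 0.66, SE; adjusted p = 0.48, edgeR). In SST mice it had 0.996, 1.23 and 0.375 CPM after CFC and 1.03, 3.74 and 1.62 CPM in the home cage (-1.29 ± 0.83, adjusted p = 0.994). Zfp36l2 overlapped in both classes, with 0.364 to 1.03 CPM after CFC and 0.0974 to 2.18 CPM in the home cage in PV mice, where the lowest home cage value rests on 2 counts. In SST mice Zfp36l2 had 0.352 to 1.29 CPM after CFC and 0.172 to 2.79 CPM in the home cage. Btg1 overlapped in PV mice, at 19.0, 23.1 and 20.6 CPM after CFC and 20.8, 17.3 and 20.0 CPM in the home cage (0.11 ± 0.19, adjusted p = 0.771, edgeR). In SST mice Btg1 had 18.7, 24.4 and 16.4 CPM after CFC and 14.2, 15.0 and 13.6 CPM in the home cage, with no overlap and no call (0.47 ± 0.22, adjusted p = 0.922).

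Markers of non-neuronal cells were mostly lower in the SST CFC group. The Zfp36 family genes also had negative fold changes there, but their groups overlapped and none passed. Vascular and mural markers summed to 71.6, 74.9 and 46.0 CPM after CFC and 124.8, 604.8 and 352.5 CPM in the home cage. Of the 12 markers tested, 0 had a positive log2 fold change and the median was -2.94, with 1 called lower. Astrocyte markers summed to 173.9 to 206.4 CPM after CFC and 196.8 to 381.6 CPM in the home cage (0 of 10 positive, median -0.651). Of 10 oligodendrocyte lineage markers 0 were positive (median -0.281), and of 10 microglia markers 2 were (median -0.5), with 0 called in these lists. Home cage replicate 2, which had the most vascular, astrocyte, oligodendrocyte lineage and microglia markers of the 6 libraries, also had the highest Zfp36, Zfp36l1 and Zfp36l2 of the 6 libraries. Without it the log2 fold change of Zfp36l1 was -0.61 ± 1.00 and that of Zfp36l2 -0.31 ± 1.26 (SE; adjusted p = 1 for both, edgeR), whereas that of Btg2 was 1.01 ± 0.33. In PV mice the vascular and mural markers summed to 46.1 to 152.5 CPM after CFC and 118.5 to 145.8 CPM in the home cage, and 9 of 10 astrocyte markers were positive (median 0.485, 0 called). Their part in these values was not tested.

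**Figure D4:**
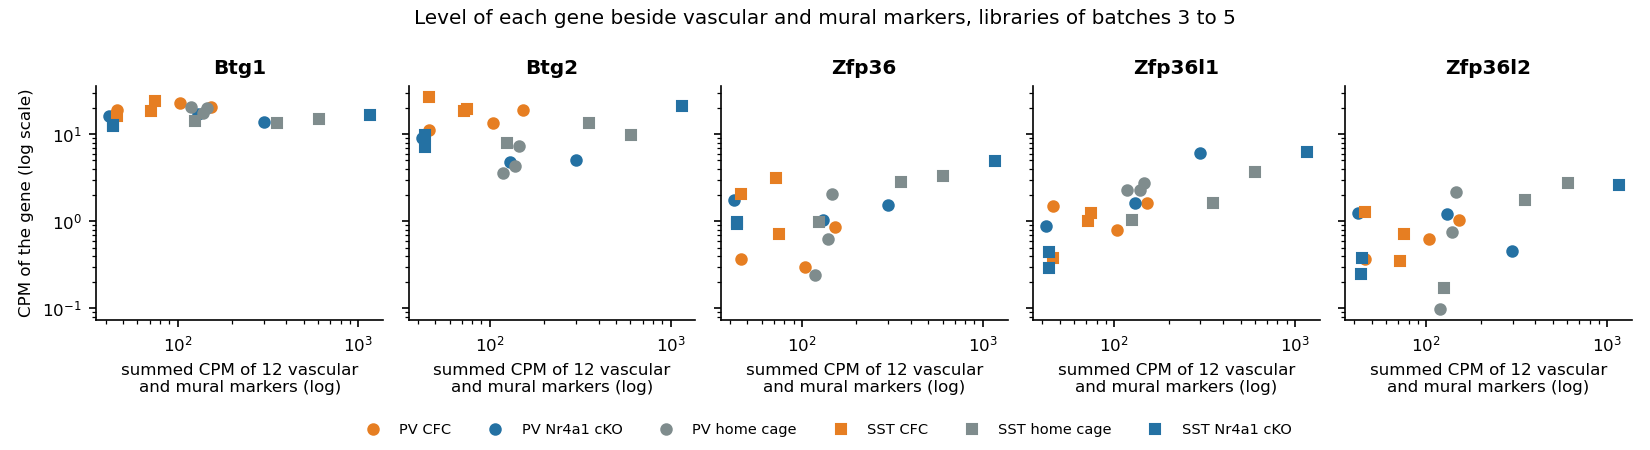
CPM of each gene against the summed CPM of 12 vascular and mural markers in the libraries of batches 3 to 5, both on log scales, with circles for PV and squares for SST libraries. SST Nr4a1 cKO replicate 1 lies far right at 1162.7 CPM with 6.34 CPM of Zfp36l1, while Btg1 lies within 12.3 to 24.4 CPM throughout.

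In PV mice, 0 of 5 members passed between Nr4a1 cKO and home cage libraries, a comparison that shares its home cage libraries with CFC. Of 15150 genes, 21 (0.139%) were called. Btg2 had 4.86, 8.97 and 5.08 CPM in PV Nr4a1 cKO libraries and 3.56, 4.33 and 7.41 CPM in the home cage (log2 fold change 0.33 ± 0.36, SE; adjusted p = 0.653, edgeR). Btg1 had 17.3, 16.3 and 13.7 CPM in Nr4a1 cKO libraries and 20.8, 17.3 and 20.0 CPM in the home cage. It was the 1 member without overlap, at 17.29 against 17.33 CPM where the groups came nearest. Of all genes, 9.02% were lower and 9.37% higher without overlap (for Btg1 -0.29 ± 0.19, adjusted p = 0.415). Zfp36 had 1.05, 1.74 and 1.56 CPM in Nr4a1 cKO libraries and 0.244, 0.619 and 2.07 CPM in the home cage (0.62 ± 0.81, adjusted p = 0.708).

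Zfp36l1 had 1.64, 0.872 and 6.13 CPM in PV Nr4a1 cKO libraries and 2.29, 2.27 and 2.72 CPM in the home cage (0.25 ± 0.65, adjusted p = 0.869, edgeR). The high value belonged to replicate 3, which had 298.8 CPM of vascular and mural markers against 130.1 and 42.0 CPM in the other cKO libraries, and the low Pvalb given above. Without that library the log2 fold change turned to -0.93 (adjusted p = 0.433, edgeR). Over the 3 cKO libraries, 10 of 10 oligodendrocyte lineage markers (median 1.06), 10 of 10 astrocyte markers (median 0.452) and 9 of 12 vascular and mural markers (median 0.823) had a positive log2 fold change, with 0 called, and their part was not tested. Zfp36l2 did not follow it, with 1.22, 1.25 and 0.458 CPM in Nr4a1 cKO libraries and 0.0974, 0.756 and 2.18 CPM in the home cage (0.01 ± 0.90, adjusted p = 0.995).

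SST Nr4a1 cKO libraries form batch 5 alone, so genotype and batch cannot be told apart and their values are given with no test. For each of the 5 genes the highest value was in replicate 1. Zfp36l1 was at 6.34, 0.294 and 0.450 CPM in the 3 libraries, Zfp36 at 4.96, 0.923 and 0.982 CPM, and Zfp36l2 at 2.62, 0.378 and 0.245 CPM. The same library held the 1162.7 CPM of vascular and mural markers, and the part of those cells was not tested. Btg2 was at 20.9, 7.05 and 9.82 CPM and Btg1 at 16.5, 12.3 and 12.8 CPM.

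Between cell classes under saline in batch 2, Btg1 was lower in SST than in PV libraries, and Zfp36 and Zfp36l1 were higher. The 4 SST saline libraries are those used for PTZ above, so the comparisons are not independent. Btg1 had 9.19, 6.71, 5.40 and 5.54 CPM in SST libraries and 23.1 and 18.4 CPM in PV libraries. The SST libraries all lay below both PV libraries (log2 fold change -1.63 ± 0.26, SE, with an adjusted p of 0.000259, edgeR). Zfp36l1 had 4.60, 4.53, 2.96 and 3.83 CPM in SST and 1.82 and 1.50 CPM in PV libraries (1.25 ± 0.38, adjusted p = 0.0162, edgeR). The PV values of Zfp36l1 rest on 12 and 7 counts. Zfp36 had 2.66, 2.24, 2.07 and 1.86 CPM in SST and 0.302 and 1.50 CPM in PV libraries (1.42 ± 0.54, adjusted p = 0.0449). These 3 of 5 members compare with 6254 of 11784 genes (53.1%) called, so their share is near that of all genes. All 3 were without overlap, as were 28.5% of genes in the lower and 30.7% in the higher direction.

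The PV values of Zfp36 rest on 2 and 7 counts, and without PV replicate 1 the log2 fold change was 0.55 (adjusted p = 0.413, edgeR), while leaving out any SST library also ended the call (adjusted p 0.0533 to 0.0768). With voom neither Zfp36 (adjusted p = 0.0997) nor Zfp36l1 (adjusted p = 0.0661) passed, and Zfp36 also did not with only the groups compared in the fit (adjusted p = 0.118). Without PV replicate 1, Zfp36l2 passed (1.99, adjusted p = 0.0264). Neither Btg2 (0.80 ± 0.56, SE; adjusted p = 0.252, edgeR) nor Zfp36l2 (0.47 ± 0.51, adjusted p = 0.463) differed beyond the threshold with all libraries. Of the listed vascular and mural markers, 6 of 7 had a positive log2 fold change and summed to 12.9 to 23.4 CPM in SST and 3.2 to 11.9 CPM in PV libraries, and their part was not tested.

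Whether responses differed between classes or stimuli was tested directly. For PTZ, the response in SST minus that in PV mice gave -0.60 ± 0.61 for Btg2 and 0.64 ± 0.62 for Zfp36 (SE; adjusted p = 0.87 and 0.86, edgeR), with 0 of 11743 genes called (0%), 602 at an unadjusted p under 0.05 and 1 called by DESeq2. For CFC, the same difference was -0.42 ± 0.48 for Btg2 (adjusted p = 0.718, edgeR) with 0 of 16044 genes called (0%), 2447 at an unadjusted p under 0.05 and 229 called by DESeq2. The response to CFC minus that to PTZ was -1.78 ± 0.55 for Btg2 and -2.94 ± 0.73 for Zfp36 in SST mice (SE; adjusted p = 0.393 and 0.252, edgeR). In PV mice it was -1.94 ± 0.54 for Btg2 and -2.93 ± 0.99 for Zfp36 (SE; adjusted p = 0.295 for both). Calls covered 10 of 11428 genes (0.0875%) in SST and 1 of 14257 (0.00701%) in PV mice, and 0 members in each of the 4 differences. With DESeq2, Zfp36 passed in SST mice (-2.94, adjusted p = 0.0178) and Btg2 in PV mice (-2.07, adjusted p = 0.0494). The stimuli were given in different batches, so stimulus and batch cannot be told apart here. SST and PV mice were also in different batches for PTZ and for CFC, so class and batch cannot be told apart either.

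Over the 31 libraries of batches 1 to 4, with log2(CPM + 1) centred within each table, Btg2 was most like 3 immediate early genes. Pearson's r was 0.951 with Npas4, 0.926 with Junb and 0.892 with Fosb, among 10994 genes. Zfp36 was most like Ptgs2, the inducible cyclooxygenase (0.852), and then Fosb and Npas4 (0.781 each). The r between Btg2 and Zfp36 was 0.76. Zfp36l1 was most like Cryab (0.857), Ucp2 (0.829) and Ifitm2 (0.822), Zfp36l2 most like Cecr2 (0.787), Tln1 (0.778) and Kalrn (0.764), and Btg1 most like Rgs2 (0.82), Mmadhc (0.819) and Maf1 (0.814). The highest r of Btg1 with another member was 0.044, with Btg2. These libraries share treatment groups, so the values hold the responses described above. With a pseudocount of 0.1 the leading gene was another for Btg1, Btg2, Zfp36l1 and Zfp36l2, and remained Ptgs2 for Zfp36 (0.766). For Zfp36, Sypl (0.727) and Cd68 (0.723) then took the places of Fosb and Npas4. Btg2 was then most like Junb (0.924), Npas4 (0.898) and Fos (0.887).

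Partners of these proteins held no calls after PTZ or CFC or in PV Nr4a1 cKO mice, unlike between SST and PV saline libraries. After PTZ, none of the 13 tested CCR4-NOT and PAN deadenylase genes passed in PV or SST mice. Their median log2 fold change was 0.218 in PV and 0.0552 in SST mice, against -0.00996 and -0.0145 for all genes, and Pan3 (0.79 ± 0.20, SE; adjusted p = 0.267, edgeR) and Cnot2 (0.21 ± 0.12, adjusted p = 0.989) had the smallest p. Tob1, another anti-proliferative protein of the BTG/Tob family, was at 0.75 ± 0.13 after PTZ in SST mice (SE; adjusted p = 0.0686, edgeR) and 0.40 ± 0.22 in PV mice (adjusted p = 0.399). The lists of decapping, exosome, other AU-rich element binding, poly(A)-binding and p38-MK2 genes had 0 calls after PTZ or CFC in either class and in PV Nr4a1 cKO mice. Xrn1, the cytoplasmic 5′ exonuclease, was at 0.95 ± 0.26 after PTZ in PV mice (SE; adjusted p = 0.286, edgeR). Mapk14, the p38 kinase upstream of MK2, was at 0.66 ± 0.19 after CFC in PV mice (adjusted p = 0.186).

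After PTZ and CFC, the calls among these lists were in known target mRNAs of the Zfp36 family. After PTZ, 1 of 14 tested targets rose in PV mice, the AP-1 subunit Fos (3.91 ± 0.51, SE; adjusted p = 0.0395, edgeR), and the median was 0.835. In SST mice 3 of 13 rose, namely Fos (3.77 ± 0.37, adjusted p = 0.000446), Ptgs2 (2.73 ± 0.22, adjusted p = 0.000109) and the MAP kinase phosphatase Dusp1 (2.48 ± 0.27, adjusted p = 0.000907), and the median was 0.148. After CFC in SST mice 2 of 13 rose, Fos (3.11 ± 0.33, adjusted p = 0.0275, edgeR) and Dusp1 (1.19 ± 0.12, adjusted p = 0.0275, edgeR). Whether levels of these targets depended on the Zfp36 family was not tested. In PV mice 0 of 14 passed after CFC and 0 of 14 between Nr4a1 cKO and home cage libraries. Of all genes tested, 0.0294% were called after PTZ in PV mice, 0.144% after PTZ in SST mice and 0.0411% after CFC in SST mice. Between SST and PV saline libraries, where 53.1% of genes were called, 4 of 13 targets were higher and 2 lower in SST libraries. The cytokine and chemokine mRNAs Tnf, Il6, Il10, Csf2, Ccl2, Ccl3, Cxcl1 and Cxcl2 were among the tested genes in none of the comparisons.

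Between SST and PV saline libraries, where 53.1% of genes were called, 8 of 13 deadenylase genes passed, 5 higher and 3 lower in SST libraries. The catalytic subunits Cnot6 (1.36 ± 0.20, SE; adjusted p = 0.000162, edgeR), Cnot7 (0.92 ± 0.23, adjusted p = 0.00544) and Cnot6l (0.89 ± 0.16, adjusted p = 0.000628) were the higher ones with the greatest change. Of 17 decapping genes 3 were higher and 7 lower, led by the Lsm ring subunits Lsm4 (-2.77 ± 0.36, adjusted p = 6.68e-05) and Lsm3 (-2.12 ± 0.41, adjusted p = 0.00114). Of 14 exosome genes 2 were higher and 6 lower, among them the core subunit Exosc6 (-2.09 ± 0.34, adjusted p = 0.000316) and, as a higher one, the nuclease Dis3 (2.02 ± 0.46, adjusted p = 0.00326).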

How the data were processed

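The deposited table of batch 1 holds expected counts per gene and those of batches 2 to 5 hold whole counts, going by the values. Per the submitters' processing notes, the tools include HTSeq 0.11.0, STAR 2.5.2a, cutadapt 1.18 and DESeq2, and mm10 and GRCm39 are both named as builds, with no role given. No source used here states whether counting was stranded. Of the values the authors deposited for batch 1, 11.3% were not whole, and these expected counts were rounded. Depth per library is given as total counts, and precision of low genes is limited by their counts.

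Each comparison used edgeR 4.0.16 in R 4.3.3 (TMM scaling, filterByExpr, quasi-likelihood test, Benjamini-Hochberg adjustment over all genes tested, threshold 0.05, two-sided), with all libraries of a table in the fit. Each SE was derived from the F statistic, as the absolute log2 fold change over the root of F. Differences between responses were contrasts across 2 tables, over genes listed in both. Alternatives were DESeq2 1.42.0, its size factors in edgeR, limma 3.58.1 with voom, no filter, only the groups compared, a replicate block, and each library left out. CPM per kilobase used exon lengths of GENCODE M21 (GRCm38), and no file coordinates were used. Whether replicates are separate animals is not stated in the labels, and the p-values then cover only library-to-library spread, which may be technical. In 37 pairs of replicates 0 had equal values, and chi-square over its degrees of freedom was at least 6.18.

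The members and lists were chosen with earlier results of these data known. Named genes are the 5 members, Nr4a1, up to 3 called genes per list with the largest change, or, with none called, up to 2 with the smallest p, and the 3 genes most like each member.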

Additional observations from a re-analysis of the deposited data

How the results depend on the processing

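With DESeq2, members called were 3 for PTZ in PV mice, and 1 each for the difference of CFC and PTZ responses in PV (Btg2) and in SST mice (Zfp36). With no filter, 1 member was called for CFC in PV mice (Btg2). With only the groups compared, 1 was called for PTZ in SST mice (Zfp36, with Btg2 at an adjusted p of 0.133). With voom, 1 was called between SST and PV saline libraries (Btg1, with Zfp36 and Zfp36l1 lost). Leaving out 1 library gave 0 to 1 members for PTZ in PV mice, 1 to 2 for PTZ in SST mice, 2 to 3 between SST and PV saline libraries, and 0 to 1 for CFC minus PTZ in SST mice (without home cage replicate 1, Zfp36 -3.28, adjusted p = 0.0438).

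Whether replicate numbers pair the samples could not be settled, as few numbers were shared per comparison. The correlation of same-numbered libraries ran from -0.232 to 0.352. In comparisons with 3 shared numbers, 2 or 3 of 6 libraries correlated best with their own number. With the replicate block, members called were 0 for PTZ in PV mice (Btg2 at an adjusted p of 0.555), 0 for PTZ in SST mice (Btg2 at 0.0672, Zfp36 at 0.143) and 1 between SST and PV saline libraries (Btg1, with Zfp36 at 0.105 and Zfp36l1 at 0.052). Genes called with the block were 2 (PTZ, PV), 8 (PTZ, SST), 2 (CFC, PV), 2 (CFC, SST), 1 (PTZ, SST minus PV), 0 (CFC minus PTZ, PV) and 0 (CFC minus PTZ, SST), and Zfp36l1 in PV Nr4a1 cKO mice was at -0.15.

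With DESeq2, genes called were 211 (PTZ, PV), 38 (PTZ, SST), 585 (CFC, PV), 112 (CFC, SST), 652 (PV Nr4a1 cKO), 1 (PTZ, SST minus PV), 229 (CFC, SST minus PV), 41 (CFC minus PTZ, PV) and 62 (CFC minus PTZ, SST). With voom they were 27 (PTZ, SST), 1 (CFC, PV), 0 (CFC minus PTZ, PV) and 2 (CFC minus PTZ, SST). With no filter they were 1032 (CFC, PV), 11 (CFC, SST), 1072 (PV Nr4a1 cKO) and 707 (CFC, SST minus PV). With only the groups compared they were 38 (PTZ, SST), 2 (CFC, PV), 10 (PV Nr4a1 cKO) and 0 (CFC minus PTZ, PV). Leaving out 1 library gave 0 to 14 (PTZ, PV), 13 to 17 (PTZ, SST), 0 to 1481 (CFC, PV), 1 to 37 (CFC, SST), 7 to 1224 (PV Nr4a1 cKO), 0 to 1 (PTZ, SST minus PV), 0 to 879 (CFC, SST minus PV), 0 to 9 (CFC minus PTZ, PV) and 0 to 59 (CFC minus PTZ, SST). The counts of 1481 and 1224 came without PV home cage replicate 1. The cause of these shifts was not tested.

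Of 740 member fold changes under alternatives, 30 changed sign and 0 of these passed the threshold (lowest adjusted p 0.433, edgeR). Voom gave 0.52 for Zfp36l2 (CFC, PV) and -0.26 for Zfp36l1 (PV Nr4a1 cKO), and DESeq2 gave -0.0154 and its size factors in edgeR -0.0152 for Zfp36l2 (PV Nr4a1 cKO). Over all alternatives, ranges crossed 0 for CFC in PV mice (Zfp36 -1.49 to 0.26, Zfp36l2 -1.08 to 0.70). Ranges also crossed 0 for CFC in SST mice (Zfp36 -0.78 to 0.13) and SST against PV saline (Zfp36l2 -0.16 to 1.99). In PV Nr4a1 cKO mice they were -0.56 to 1.23 for Zfp36l2, -0.0119 to 0.67 for Btg2 and -0.93 to 0.68 for Zfp36l1. Among differences of responses, Btg1 ran from -0.23 to 0.29 (PTZ, SST minus PV), -0.46 to 0.12 (CFC minus PTZ, PV) and -0.0453 to 0.28 (CFC minus PTZ, SST). For CFC, SST minus PV, Zfp36 ran from -0.45 to 1.30, Zfp36l1 from -0.67 to 0.32 and Zfp36l2 from -1.60 to 0.28. The levels of the 5 genes in 11 groups moved by less than 1 SD with plain totals in place of TMM.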
